A study of Homo sapiens with 45 samples.

Results

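The genes described here encode the core of the microRNA (miRNA) pathway, from the enzymes that cut miRNA precursors to the proteins that silence target transcripts. The list holds 10 genes: DROSHA, DGCR8, XPO5, DICER1, TARBP2, AGO1, AGO2, TNRC6A, TNRC6B and TNRC6C. Members were the probe sets that the platform annotation pairs with 1 of these symbols alone, each taken on its own. That gave 37 of the 54675 probe sets on the array, which cover 9 of the 10 genes. DGCR8, the RNA-binding partner of DROSHA, has 4 probe sets that also carry a second symbol, so it has no value here. Of the 37, 34 lay above the median of all values (4.89 log2 units, taken as a level near background) in at least 1 group mean and were tested. They belong to 31147 tested probe sets in all. Over the 15 groups, 21 of the 34 lay above that level in every group mean and 13 did not, and the 3 untested ones belong to DICER1 (1) and TNRC6C (2).

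Gene expression was measured on 45 arrays of total RNA from HEY and SKOV3, both ovarian cancer cell lines, and from PC3, a prostate cancer cell line. In each line 1 group of cells received the miR-203a precursor, another miR-205 and another miR-429, all synthetic. The control group received a negative-control precursor (miR-NC), and each precursor was used at 33 nM with RNA taken 48 h later. A further group in each line is labelled untransfected, and every group has 3 arrays. The series asks how the shift of mesenchymal cancer cells to an epithelial state under these miRNAs differs between cell types. What is described here is whether the cells' own miRNA machinery changed at the same time.

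In the nucleus DROSHA, with DGCR8, cuts the hairpin out of a primary miRNA transcript, and exportin 5 (XPO5) carries the hairpin to the cytoplasm. There DICER1, with its partner TARBP2, cuts it to a duplex, of which an Argonaute protein (AGO1, AGO2) keeps a single strand. The Argonaute binds a GW182 protein (TNRC6A, TNRC6B or TNRC6C), which brings in deadenylases that shorten and destabilise the target transcript. A synthetic precursor enters the pathway after DROSHA and is loaded into the same Argonautes as the cell's own miRNAs.

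The mature sequences of the transfected miRNAs are shown because all 3 use the machinery described while carrying different seeds, the part that pairs with targets. They are from RefSeq (GRCh38.p14), run 5′ to 3′, and have the seed, bases 2 to 8, in capitals.
hsa-miR-203a-3p: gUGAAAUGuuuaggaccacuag
hsa-miR-205-5p: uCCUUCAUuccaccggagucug
hsa-miR-429: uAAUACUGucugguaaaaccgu
The first is encoded at chr14:104117469-104117490, the next at chr1:209432166-209432187 and the last at chr1:1169055-1169076, each on the plus strand. No seed is shared between them. The labels give the precursors by family name, and the arms printed are those RefSeq lists under the names above.

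Several features of the arrays bear on the values. Within the transfected groups, no pair of replicate arrays correlated below 0.981 across probe sets. The arrays labelled untransfected go against their line labels: ERBB2, which is amplified in SKOV3, averaged 12.31 ± 0.39 log2 units on those labelled HEY against 7.60 ± 0.38 on those labelled SKOV3 (SD, n = 3 each). HOXB13, a prostate gene, averaged 11.73 ± 0.09 on those labelled SKOV3 and 4.36 ± 0.23 on those labelled PC3. On the miR-NC arrays ERBB2 averaged 11.34 in SKOV3, 6.83 in HEY and 6.37 in PC3 cells. HOXB13 averaged 6.56 in PC3, 6.70 in SKOV3 and 4.81 in HEY cells there, so it did not tell PC3 from SKOV3. Its highest transfected group mean was 8.19, in PC3 cells with miR-203a. Because of the label conflict no comparison sets the 9 arrays labelled untransfected against others. They do share in the fit, where they add to the estimate of the spread and to the filter, and in the likeness over group means at the end. On the 36 transfected arrays the blood-cell genes PTPRC and CD3E stayed at or below 4.73, and of the fibroblast genes COL1A2 reached 5.60 and COL1A1 ranged from 7.75 to 12.60. The control probe set for the 5′ end of GAPDH was even over the SKOV3 transfections, with group means of 13.70 to 13.75. It averaged 8.95 with miR-203a, 12.28 with miR-205 and 6.25 with miR-429 in HEY cells, against 8.37 with miR-NC. In PC3 cells it averaged 9.99 with miR-203a, 8.70 with miR-205 and 4.54 with miR-429, against 5.04 with miR-NC. The 5′ control of ACTB differed from miR-NC by 0.75 with miR-203a, 1.22 with miR-205 and -0.97 with miR-429 in HEY cells, and by 3.73, 2.73 and -0.55 in the same order in PC3 cells. The 3′ control of ACTB differed by -0.03 to 0.35 over these 6 groups, where that of GAPDH differed by -0.32 to 2.01. A short 5′ signal at a high 3′ signal is a sign of RNA or labelling quality, and its part in the HEY and PC3 results below was not tested. All 3 miRNA comparisons of a line share the same 3 miR-NC arrays.

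**Figure D1:**
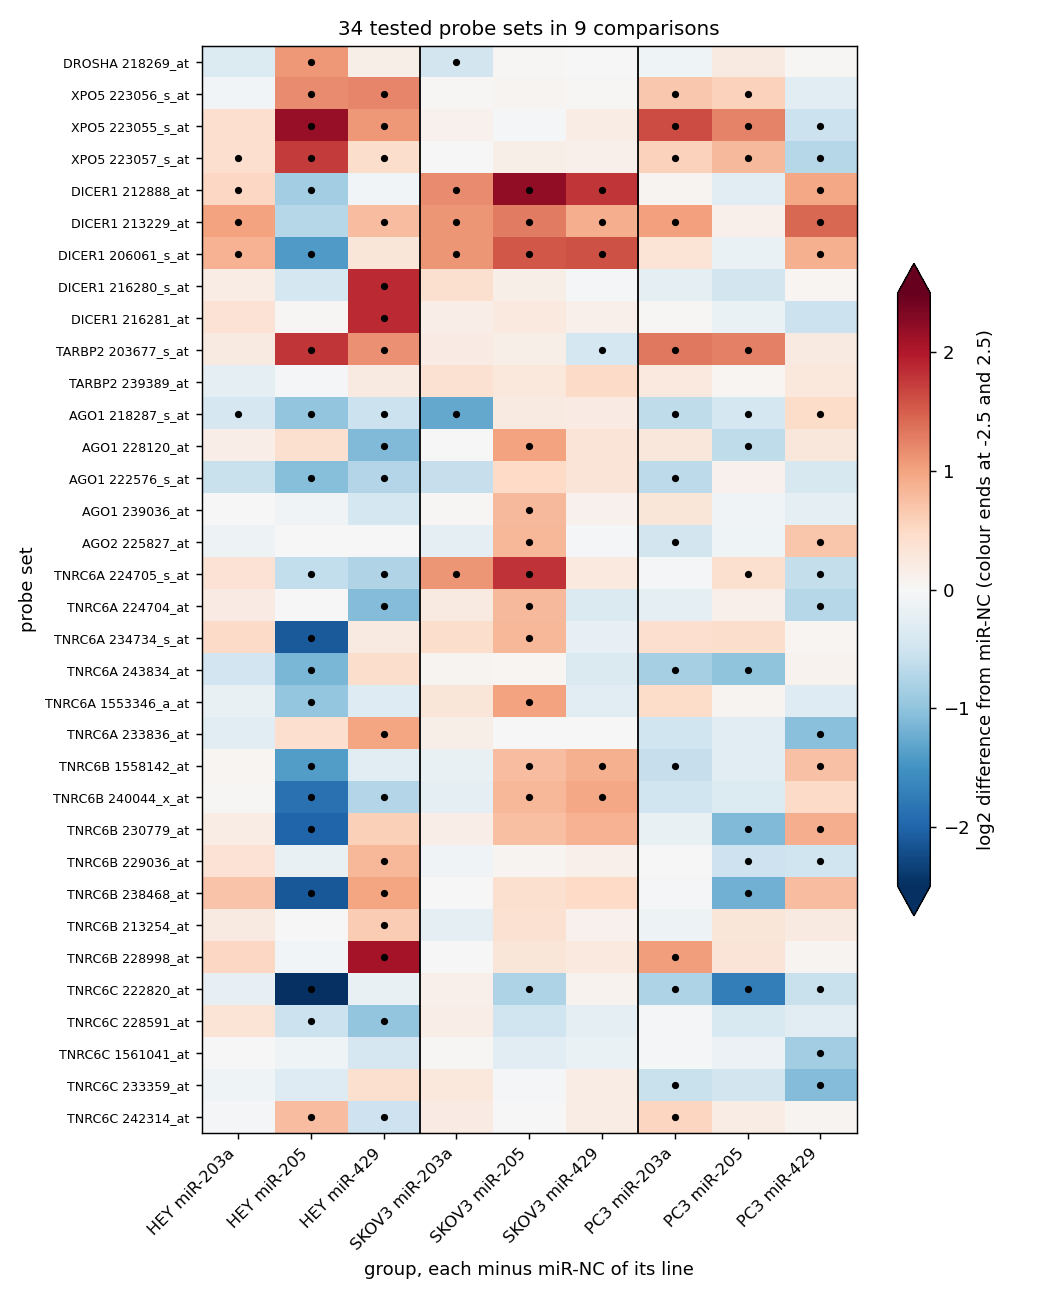
Log2 difference between each miRNA group and the miR-NC group of its line (columns) for the 34 tested probe sets (rows, grouped by gene); red is higher and blue lower than miR-NC, and a black dot marks an adjusted p under 0.05. DICER1 is red with dots on its 3 upper rows in all 3 SKOV3 columns, and the 3 XPO5 rows are pale in SKOV3.

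In SKOV3 cells, where the control probe sets were even, the transcript of DICER1 rose with each of the 3 miRNAs and that of TNRC6A rose with miR-203a and miR-205. With miR-205, 12 member probe sets rose, where 14% of all tested probe sets did, and 1, the brightest of TNRC6C, fell, where 8.19% of all did. The 13 called are 38.2% of the 34 tested, beside 22.2% of all. MiR-203a changed 6, beside 9.99% of all tested probe sets, with 4 higher (5.88% of all) and 2 lower (4.11%). MiR-429 also changed 6, beside 18.9% of all, with 5 higher (13%) and 1 lower (5.84%). Those 6 are 17.6% of the members in each case, so for miR-429 the share is near that of all probe sets. These are bulk samples, in which fewer cells of a kind and less RNA per cell cannot be told apart. The median member difference was 0.11 with miR-203a, 0.28 with miR-205 and 0.13 with miR-429, against 0.01, 0.01 and -0.01 over all tested probe sets.

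In HEY cells miR-203a changed 5 member probe sets, beside 13% of all tested, with 4 higher (6.47% of all) and 1 lower (6.56%), and 0 to 2 when any 1 of its arrays was left out. MiR-205 changed 20, beside 64.8% of all, with 6 higher (32.8%) and 14 lower (32%). MiR-429 changed 20, beside 57.7% of all, with 12 higher (24.3%) and 8 lower (33.4%). The 12 include 216281_at of DICER1, which passed the filter through this group alone, so its call is no support. The 20 are 58.8% of the 34 members, near the share of all probe sets. In PC3 cells 14 changed with miR-203a, beside 54.8% of all, with 7 higher (30.7%) and 7 lower (24.2%). With miR-205 12 changed, beside 46.7% of all, with 5 higher (26.9%) and 7 lower (19.8%). With miR-429 16 changed, beside 44.3% of all, with 7 higher (13%) and 9 lower (31.3%). As shares of the 34 members the PC3 counts are 41.2%, 35.3% and 47.1%, so they too lie near or below those of all probe sets. In PC3 cells with miR-429 the median of all tested probe sets was itself -0.20, and changes there are best read against it.

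DROSHA, the nuclear endonuclease, has a single probe set (218269_at, gene at chr5:31400494-31532093). In SKOV3 cells it read 9.34, 9.49 and 9.40 with miR-203a, against 9.85, 9.93 and 9.83 with miR-NC. The 2 groups did not overlap, as was so for 34.1% of all probe sets in that comparison, and DROSHA fell by 0.46 ± 0.13 log2 units (SE, adjusted p = 0.0155). The call was lost in 2 of the 6 fits that each leave out 1 array, with an adjusted p of up to 0.0711. In HEY cells DROSHA read 11.68, 11.51 and 11.72 with miR-205, against 10.58, 10.67 and 10.43 with miR-NC, a rise of 1.08 ± 0.13 (adjusted p = 3.34e-09). All 3 miR-205 arrays lay above the miR-NC arrays, a separation that 70.2% of all probe sets showed in one direction or the other in this comparison. The other 7 differences were between -0.34 and 0.22 and did not pass the test.

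XPO5, the export receptor (chr6:43522334-43576038), changed in HEY and PC3 cells, where the GAPDH control probe sets also moved, and in no SKOV3 comparison. Its brightest probe set (223056_s_at) averaged 9.66 ± 0.08 with miR-205 and 9.70 ± 0.09 with miR-429 in HEY cells, against 8.48 ± 0.12 with miR-NC (SD, n = 3 each). These are rises of 1.18 ± 0.12 (adjusted p = 8.62e-11) and 1.21 ± 0.12 (adjusted p = 7.24e-11). In PC3 cells it averaged 8.87 ± 0.05 with miR-203a and 8.77 ± 0.20 with miR-205, against 8.19 ± 0.07 with miR-NC. Those rises were 0.68 ± 0.12 (adjusted p = 1.10e-05) and 0.58 ± 0.12 (adjusted p = 0.000133). The other 2 XPO5 probe sets rose in the same 4 comparisons, by 0.44 to 2.17. With miR-429 in PC3 cells they fell by 0.54 and 0.70, calls that were lost under quantile normalization. The first became -0.31 (adjusted p = 0.102) without miR-429 replicate 3. There 223056_s_at differed by -0.26 and did not pass. With miR-203a in HEY cells only 223057_s_at passed, at 0.42 (adjusted p = 0.0256, lost in 4 of 6 fits without 1 array). In SKOV3 cells the 3 XPO5 probe sets differed from miR-NC by -0.04 to 0.19, and none passed. The 5′ GAPDH signal was 3.92 higher with miR-205 in HEY cells, 4.95 higher with miR-203a and 3.66 higher with miR-205 in PC3 cells, and with miR-429 in HEY cells it was lower by 2.11 while the 3′ signal was 1.31 higher. Their part in the XPO5 result was not tested.

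**Figure D2:**
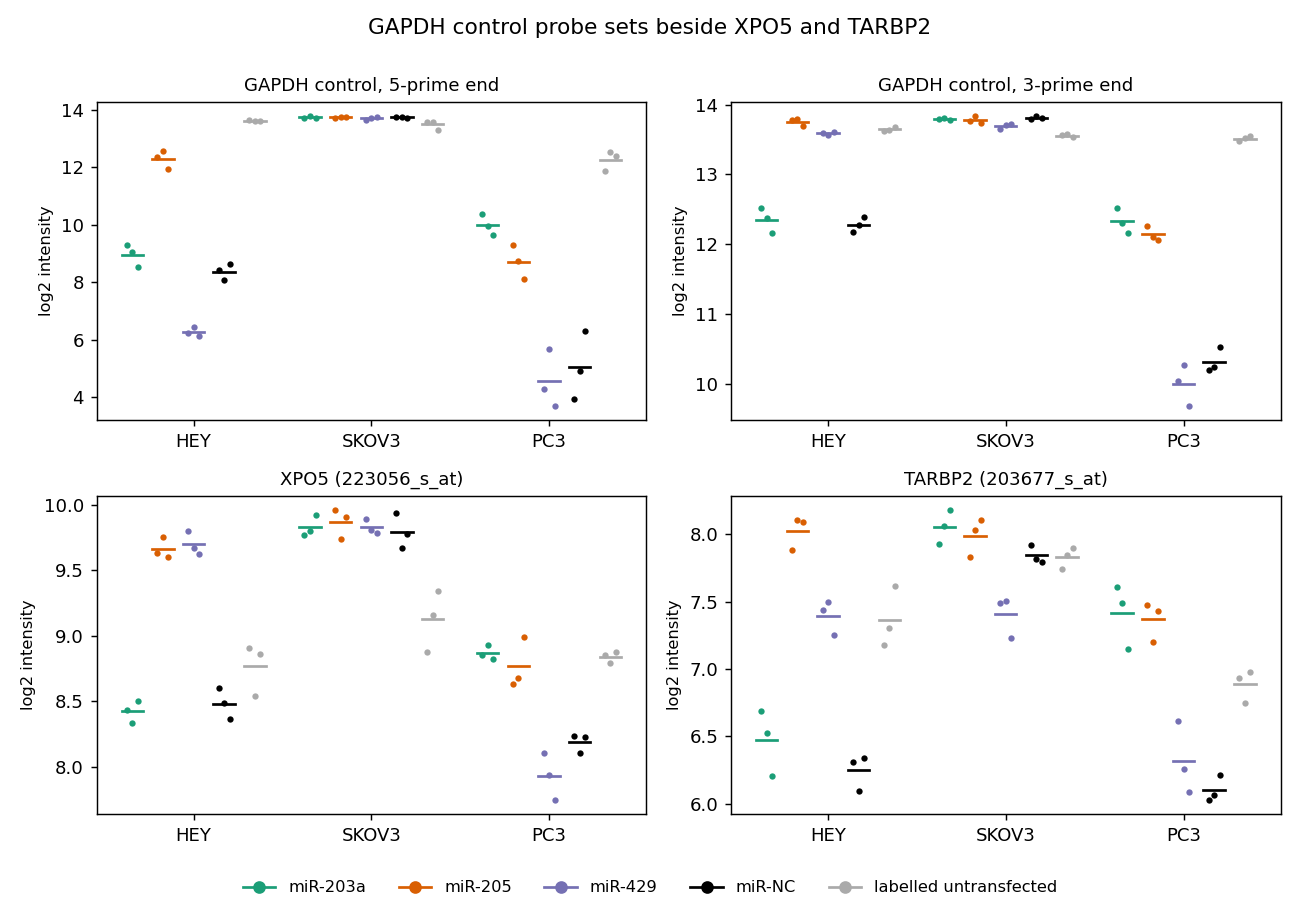
Log2 intensity of the GAPDH control probe sets for the 5′ and 3′ ends (top) and of the brightest XPO5 and TARBP2 probe sets (bottom) on every array, by line; points are arrays, bars are group means, and colours are treatments. In SKOV3 cells the transfected groups lie level in GAPDH and in XPO5. Among the transfected groups of HEY and of PC3 cells, those with high 3′ GAPDH are also those with high XPO5 and TARBP2. The arrays labelled untransfected need not follow this: those labelled HEY average 13.65 in 3′ GAPDH and 8.77 in XPO5.

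DICER1, the cytoplasmic enzyme that makes the miRNA duplex (chr14:95086228-95158010), was higher in SKOV3 cells after all 3 transfections than in control SKOV3 cells. Its brightest probe set (212888_at) read 9.95, 9.80 and 9.17 with miR-203a, against 8.54, 8.41 and 8.42 with miR-NC. With miR-205 it read 10.70, 10.63 and 10.70, and with miR-429 10.35, 10.04 and 10.35. Every treated SKOV3 array lay above all 3 miR-NC arrays. The rises were 1.18 ± 0.15 with miR-203a (2.26-fold, adjusted p = 4.88e-07), 2.22 ± 0.15 with miR-205 (4.66-fold, adjusted p = 1.15e-13) and 1.79 ± 0.15 with miR-429 (3.46-fold, adjusted p = 3.23e-11). They share their control arrays, and differences among the 3 miRNAs were not tested.

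The other bright DICER1 probe sets gave the same direction in SKOV3 cells. Probe set 206061_s_at averaged 8.24 ± 0.15 with miR-203a, 8.69 ± 0.22 with miR-205 and 8.73 ± 0.30 with miR-429, against 7.14 ± 0.15 with miR-NC. Its rises were 1.11 ± 0.27 (adjusted p = 0.00391), 1.56 ± 0.27 (adjusted p = 2.47e-05) and 1.60 ± 0.27 (adjusted p = 2.09e-05). Probe set 213229_at rose by 1.11 ± 0.33, 1.30 ± 0.33 and 0.90 ± 0.33, with adjusted p = 0.0217, 0.00288 and 0.0475. Its call for miR-203a was lost in 4 of 6 fits without 1 array, and that for miR-429 in 5 of 6. The miR-429 call was also lost under quantile normalization, where the adjusted p was 0.111. The 2 dim DICER1 probe sets differed by -0.04 to 0.40 in SKOV3 cells and were called in none of these comparisons.

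**Figure D3:**
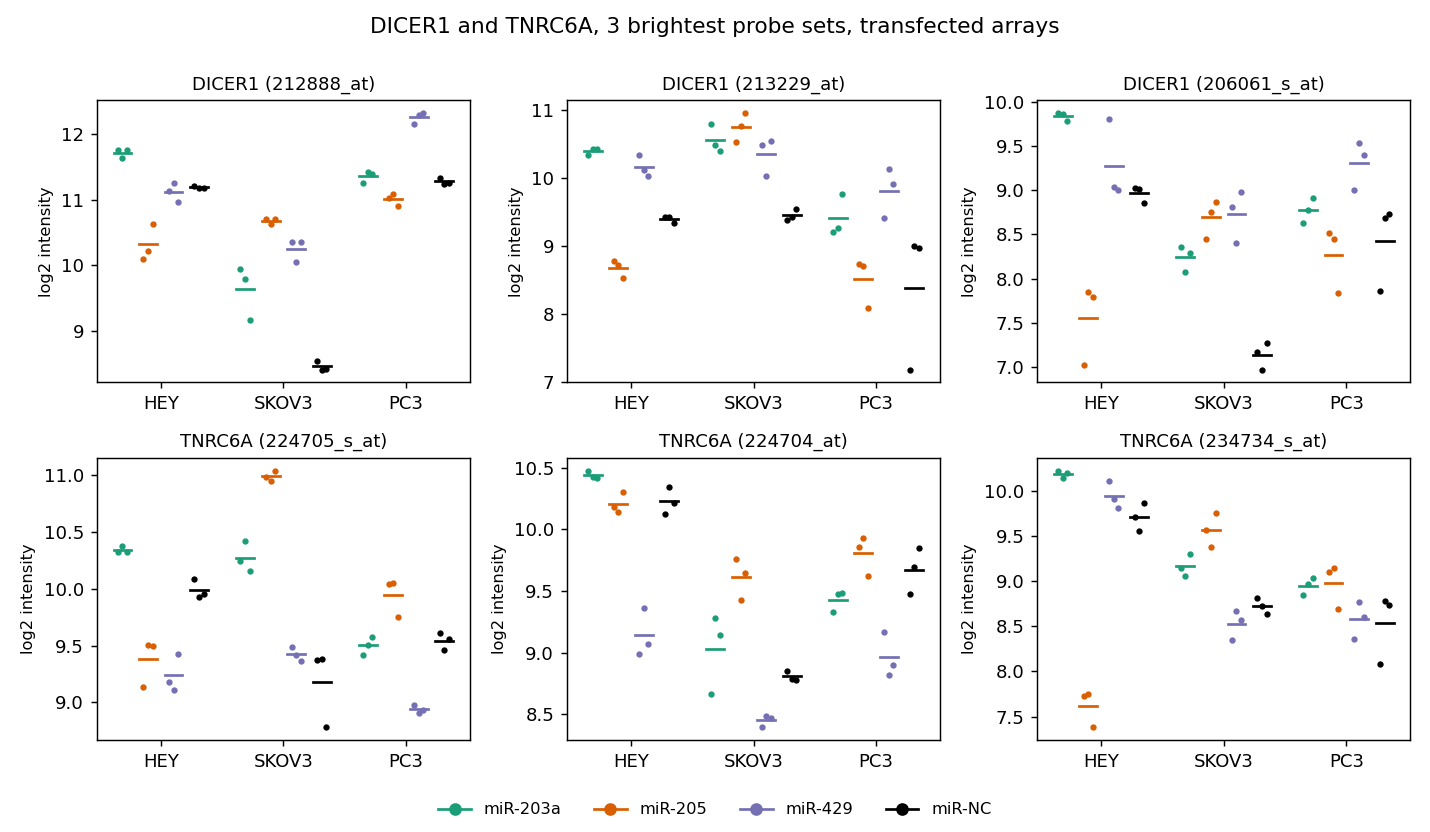
Log2 intensity of the 3 brightest probe sets of DICER1 (top) and TNRC6A (bottom) on each of the 36 transfected arrays, by line; points are arrays and bars group means. In SKOV3 cells all 9 treated arrays lie above the 3 miR-NC arrays for the DICER1 probe sets, while for TNRC6A the miR-205 arrays are high and those with miR-429 are not.

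The same gene moved differently in the other lines. In HEY cells 212888_at read 10.10, 10.22 and 10.63 with miR-205, against 11.21, 11.18 and 11.17 with miR-NC, a fall of 0.87 ± 0.15 log2 units without overlap (adjusted p = 6.51e-06). Of all tested probe sets 70.2% showed no overlap in that comparison. Probe set 206061_s_at averaged 7.55 ± 0.46 there with miR-205, against 8.97 ± 0.10 with miR-NC, and its change was -1.41 ± 0.27 (adjusted p = 1.74e-05). With miR-203a the HEY arrays read 11.75, 11.63 and 11.75, a rise of 0.52 ± 0.15 (adjusted p = 0.0190). That call was lost in 4 of 6 fits without 1 array and in a fit of HEY alone (adjusted p = 0.101). The rises of 206061_s_at (0.87) and 213229_at (1.00) there were each lost in all 6 such fits. With miR-429 the HEY arrays read 11.14, 11.25 and 10.96 on 212888_at, overlapping miR-NC. Probe set 213229_at rose there by 0.77, a call lost in all 6 fits without 1 array, and 206061_s_at differed by 0.31 and did not pass. The dim probe set 216280_s_at averaged 6.88 with miR-429, against 5.02 with miR-NC, and rose by 1.86. Another, 216281_at, averaged 5.28, against 3.42, and lay above the background level in this group alone, which is how it passed the filter, so its difference is given as a description.

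In PC3 cells DICER1 rose with miR-429. Probe set 212888_at read 12.16, 12.28 and 12.32, against 11.34, 11.24 and 11.26 with miR-NC, a rise of 0.97 ± 0.15 (1.96-fold, adjusted p = 4.69e-06). The PC3 arrays with miR-203a read 11.25, 11.43 and 11.39 and those with miR-205 11.02, 11.08 and 10.90, and neither difference passed (0.08 and -0.28). Probe set 213229_at rose with miR-203a by 1.03 ± 0.33 (adjusted p = 0.00739) and with miR-429 by 1.44 ± 0.33 (adjusted p = 0.000553). Its PC3 miR-NC arrays read 7.18, 8.99 and 8.96. Without the low one, miR-NC replicate 1, the miR-203a difference was 0.43 (adjusted p = 0.218) and the miR-429 difference 0.84. Without the same array the call of 206061_s_at with miR-429 (0.88 ± 0.27, adjusted p = 0.00697) was lost too, at 0.60 (adjusted p = 0.0857).

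DICER1 has 5 start-site windows in the RefSeq promoter table (250 bases before to 50 after a start). The window shown is the only one of the 5 that holds CACCTG or its reverse complement CAGGTG, the E-box that ZEB1 and ZEB2, repressors known as targets of miR-200 family members and miR-205, bind. It is chr14:95157961-95158260 (GRCh38.p14, minus strand), with the match in capitals.
DICER1 window: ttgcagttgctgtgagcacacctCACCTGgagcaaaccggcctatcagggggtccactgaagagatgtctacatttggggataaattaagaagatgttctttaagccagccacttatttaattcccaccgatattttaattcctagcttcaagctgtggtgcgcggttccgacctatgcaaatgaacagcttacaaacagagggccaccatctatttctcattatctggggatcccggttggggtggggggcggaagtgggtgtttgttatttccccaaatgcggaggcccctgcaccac
The table holds 18 windows for 9 of the 10 listed genes, AGO2 being without one, and on both strands 3 held the motif, beside 20.6% of all 35116 windows. The match is a description of these letters and no evidence of binding.

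TARBP2, the double-stranded RNA-binding partner of DICER1 (chr12:53500923-53506431), moved with XPO5 in HEY and PC3 cells. Its brighter probe set (203677_s_at) read 7.88, 8.11 and 8.09 with miR-205 and 7.44, 7.49 and 7.25 with miR-429 in HEY cells, against 6.31, 6.10 and 6.34 with miR-NC. The rises were 1.78 ± 0.14 (adjusted p = 2.03e-13) and 1.15 ± 0.14 (adjusted p = 1.15e-08). In PC3 cells it read 7.61, 7.49 and 7.15 with miR-203a and 7.47, 7.20 and 7.43 with miR-205, against 6.03, 6.06 and 6.21 with miR-NC. There the rises were 1.31 ± 0.14 (adjusted p = 8.79e-10) and 1.27 ± 0.14 (adjusted p = 2.93e-09). These are the 4 groups named for XPO5, and the GAPDH values given there apply. In SKOV3 cells TARBP2 fell with miR-429 by 0.44 ± 0.14 (adjusted p = 0.0260), with arrays at 7.49, 7.50 and 7.23, against 7.92, 7.82 and 7.79. That call was lost in 3 of 6 fits without 1 array. The dim second probe set (239389_at) was called in none of the 9 comparisons.

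AGO1, an Argonaute that binds miRNAs without cutting their targets efficiently (chr1:35869761-35930532), fell on its brightest probe set with miR-203a in all 3 lines. Probe set 218287_s_at read 8.25, 8.50 and 8.24 with miR-203a in SKOV3 cells, against 9.63, 9.48 and 9.71 with miR-NC. It read 9.03, 9.23 and 9.05 in PC3 cells, against 9.66, 9.72 and 9.82 with miR-NC. In HEY cells it read 9.34, 9.21 and 9.32, against 9.76, 9.63 and 9.72 with miR-NC. In each line the miR-203a arrays lay below all miR-NC arrays. Such a separation, in either direction, held for 34.1%, 60% and 39.6% of all tested probe sets in SKOV3, PC3 and HEY. The falls were -1.28 ± 0.14 in SKOV3 (2.42-fold lower, adjusted p = 1.43e-08), -0.63 ± 0.14 in PC3 (adjusted p = 0.000242) and -0.41 ± 0.14 in HEY (adjusted p = 0.0447). The HEY call was lost in all 6 fits without 1 array and without the filter on dim probe sets.

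The second AGO1 probe set did not follow. Probe set 228120_at differed by -0.00, 0.28 and 0.16 with miR-203a in SKOV3, PC3 and HEY cells, and none passed. The dimmer 222576_s_at differed by -0.58, -0.65 and -0.55, of which the PC3 value passed (adjusted p = 0.0475), a call lost in 4 of 6 fits without 1 array. With miR-205 the probe sets also parted: in SKOV3 cells 228120_at rose by 1.00 ± 0.20 (adjusted p = 0.000199) while 218287_s_at differed by 0.22, and in HEY cells 218287_s_at fell by 0.99 ± 0.14 (adjusted p = 1.30e-07) while 228120_at differed by 0.41. In PC3 cells with miR-205 both fell, by 0.43 and 0.64, the second call being lost without miR-205 replicate 3 (-0.48, adjusted p = 0.0720), and in HEY cells with miR-429 both fell, by 0.54 and 1.10. With miR-429 in PC3 cells 218287_s_at rose by 0.45 ± 0.14 (adjusted p = 0.00887), which was lost under quantile normalization (0.29, adjusted p = 0.0828).

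AGO2, the Argonaute that cleaves fully matched targets, has 1 probe set of its own (225827_at, gene at chr8:140520156-140642313), and 3 others carry a second symbol. In SKOV3 cells it read 8.43, 8.74 and 8.81 with miR-205, against 7.74, 7.81 and 7.94 with miR-NC. The groups did not overlap, as was so for 49.7% of all tested probe sets, and AGO2 rose by 0.83 ± 0.17 (1.78-fold, adjusted p = 0.000277). In PC3 cells it read 10.81, 10.99 and 10.77 with miR-429 and 9.80, 9.70 and 9.65 with miR-203a, against 10.28, 10.19 and 10.05 with miR-NC. It rose with miR-429 by 0.69 ± 0.17 (adjusted p = 0.00126) and fell with miR-203a by 0.45 ± 0.17 (adjusted p = 0.0218), the second lost in 3 of 6 fits without 1 array. In HEY cells the 12 transfected arrays lay between 9.59 and 9.89, and no difference passed.

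TNRC6A, the GW182 protein after which the family is named (chr16:24610205-24826218), rose in SKOV3 cells with miR-203a and miR-205. Its brightest probe set (224705_s_at) read 10.24, 10.42 and 10.16 with miR-203a and 10.99, 10.95 and 11.04 with miR-205, against 9.38, 9.38 and 8.78 with miR-NC. The rises were 1.10 ± 0.14 (2.14-fold, adjusted p = 2.49e-07) and 1.81 ± 0.14 (3.52-fold, adjusted p = 1.46e-12). With miR-429 the arrays read 9.49, 9.42 and 9.36, and the difference of 0.24 did not pass. With miR-205, 4 of the 6 TNRC6A probe sets rose, among them 224704_at by 0.80 ± 0.14 (adjusted p = 4.46e-05). The rise of 234734_s_at (0.84 ± 0.29, adjusted p = 0.0325) was lost under quantile normalization (0.68, adjusted p = 0.137) and in 5 of 6 fits without 1 array. With miR-203a only 224705_s_at passed, and 224704_at differed by 0.22.

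In HEY cells TNRC6A read 9.13, 9.51 and 9.50 with miR-205 and 9.18, 9.11 and 9.42 with miR-429 on 224705_s_at, against 10.08, 9.93 and 9.95 with miR-NC. It fell by 0.61 ± 0.14 (adjusted p = 0.000222) and by 0.75 ± 0.14 (adjusted p = 1.55e-05). The second probe set, 224704_at, fell with miR-429 by 1.08 and differed by -0.02 with miR-205. The dim 233836_at rose with miR-429 by 0.99, with both group means below the background level. With miR-205 the dimmer 234734_s_at and 243834_at fell by 2.09 and 1.14. In PC3 cells 224705_s_at averaged 9.95 ± 0.17 with miR-205 and 8.94 ± 0.04 with miR-429, against 9.54 ± 0.08 with miR-NC. The differences were 0.41 ± 0.14 (adjusted p = 0.0143, lost in 3 of 6 fits without 1 array) and -0.60 ± 0.14 (adjusted p = 0.000614). When array medians were subtracted the second became -0.19 (adjusted p = 0.269). The dimmer 243834_at went the other way with miR-205 in PC3 cells, where it fell by 1.00. That call held in all 6 fits without 1 array. With miR-203a in PC3 cells 243834_at fell by 0.84, a call lost without miR-NC replicate 3. The miR-205 change of TNRC6A on 224705_s_at thus had opposite signs in HEY and SKOV3 cells, and the difference between lines is tested further on.

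TNRC6B, a second GW182 protein (chr22:40044834-40335808), rose in SKOV3 cells with miR-205 and miR-429. Its brightest probe set (1558142_at) read 8.90, 8.81 and 8.96 with miR-205 and between 8.73 and 9.27 with miR-429, against 7.84, 8.27 and 8.24 with miR-NC. The rises were 0.77 ± 0.16 (adjusted p = 0.000251) and 0.88 ± 0.16 (adjusted p = 5.16e-05), and 240044_x_at rose with both as well (0.83 and 0.96). Of the 7 TNRC6B probe sets only these 2 passed in each comparison. The smallest differences among the 7 were 0.07 with miR-205 and 0.11 with miR-429. In HEY cells 1558142_at read 9.21, 9.38 and 9.26 with miR-205, against 10.79, 10.69 and 10.56 with miR-NC, a fall of 1.40 ± 0.16 (adjusted p = 7.77e-10). Of 7 TNRC6B probe sets, 4 fell in that comparison, by up to 2.11, and the other 3 differed by -0.18 to 0.00. In PC3 cells 1558142_at rose with miR-429 by 0.73 ± 0.16 (adjusted p = 0.000280) and fell with miR-203a by 0.58 ± 0.16 (adjusted p = 0.00184). With miR-203a the dim 228998_at rose by 1.05, with both group means below the background level. With miR-429 230779_at rose by 0.90 and 229036_at fell by 0.50, calls lost in 3 and 4 of 6 fits without 1 array. With miR-205 in PC3 cells 1558142_at differed by -0.29 and did not pass, while 230779_at, 229036_at and 238468_at fell by 1.10, 0.51 and 1.21. Those calls were lost in 3, 4 and 2 of 6 fits without 1 array, in which the first ranged from -1.82 to -0.73 and the last from -1.70 to -0.73. With miR-429 in HEY cells the probe sets disagreed. There 4 rose and 1 fell. Those that rose were 229036_at by 0.83, 213254_at by 0.63, 238468_at by 0.99 and 228998_at by 2.08. The call of 238468_at was lost in 2 of 6 fits without 1 array, and 228998_at had a miR-NC mean of 4.27, below the background level. The fall was that of 240044_x_at by 0.73, its call lost without miR-429 replicate 1 (adjusted p = 0.0679). The brightest, 1558142_at, differed by -0.29 and did not pass.

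TNRC6C, the third GW182 protein (chr17:77957557-78108835), fell with miR-205 in all 3 lines on its brightest probe set. Probe set 222820_at read 3.89, 5.22 and 4.39 with miR-205 in HEY cells, against 6.97, 7.09 and 6.89 with miR-NC. It read 5.86, 5.31 and 5.49 in SKOV3 cells, against 6.27, 6.30 and 6.41 with miR-NC. In PC3 cells it averaged 5.51 ± 0.48 with a highest array of 5.95, against 7.41, 7.17 and 7.15 with miR-NC. In each line every miR-205 array lay below every miR-NC array. Such a separation, in either direction, held for 70.2%, 49.7% and 53.6% of all tested probe sets in HEY, SKOV3 and PC3. The falls were -2.48 ± 0.22 in HEY (adjusted p = 1.65e-12), -0.77 ± 0.22 in SKOV3 (adjusted p = 0.00734) and -1.73 ± 0.22 in PC3 (3.32-fold lower, adjusted p = 2.52e-08). The HEY mean of 4.50 with miR-205 lies below the background level, so the size of that fall is uncertain. The SKOV3 call was lost without miR-205 replicate 2 (-0.65, adjusted p = 0.0560).

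The other 4 tested TNRC6C probe sets are dim, each above 4.89 in 5 to 9 of the 15 group means. With miR-205 they differed by -0.53 to 0.77 in HEY cells, by -0.50 to -0.02 in SKOV3 cells and by -0.47 to 0.19 in PC3 cells. Among them 228591_at fell in HEY cells (-0.53 ± 0.19, adjusted p = 0.0152), a call lost without miR-NC replicate 1 (adjusted p = 0.0835), and 242314_at rose there (0.77 ± 0.19, adjusted p = 0.000604). With miR-429 in PC3 cells 222820_at, 1561041_at and 233359_at fell by 0.56, 0.87 and 1.09, and all 3 calls were lost under quantile normalization. In PC3 cells 222820_at also fell with miR-203a (-0.78 ± 0.22, adjusted p = 0.00251), and miR-205 set directly against miR-203a gave -0.96 ± 0.22 (adjusted p = 0.00117). Those 2 groups had 5′ GAPDH means of 8.70 and 9.99, closer to each other than to miR-NC. They still differed, by -1.29 in 5′ GAPDH and -0.99 in 5′ ACTB, without overlap of arrays, whereas 3′ GAPDH (-0.19) overlapped. In that direct comparison 8 of 34 member probe sets were called, 23.5% beside 21.3% of all tested, with 2 higher (10.6% of all) and 6 lower (10.7%). The count was 3 to 5 when 1 array was left out. XPO5 and TARBP2 differed in it by -0.10 and -0.05 on their brightest probe sets, and neither passed.

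**Figure D4:**
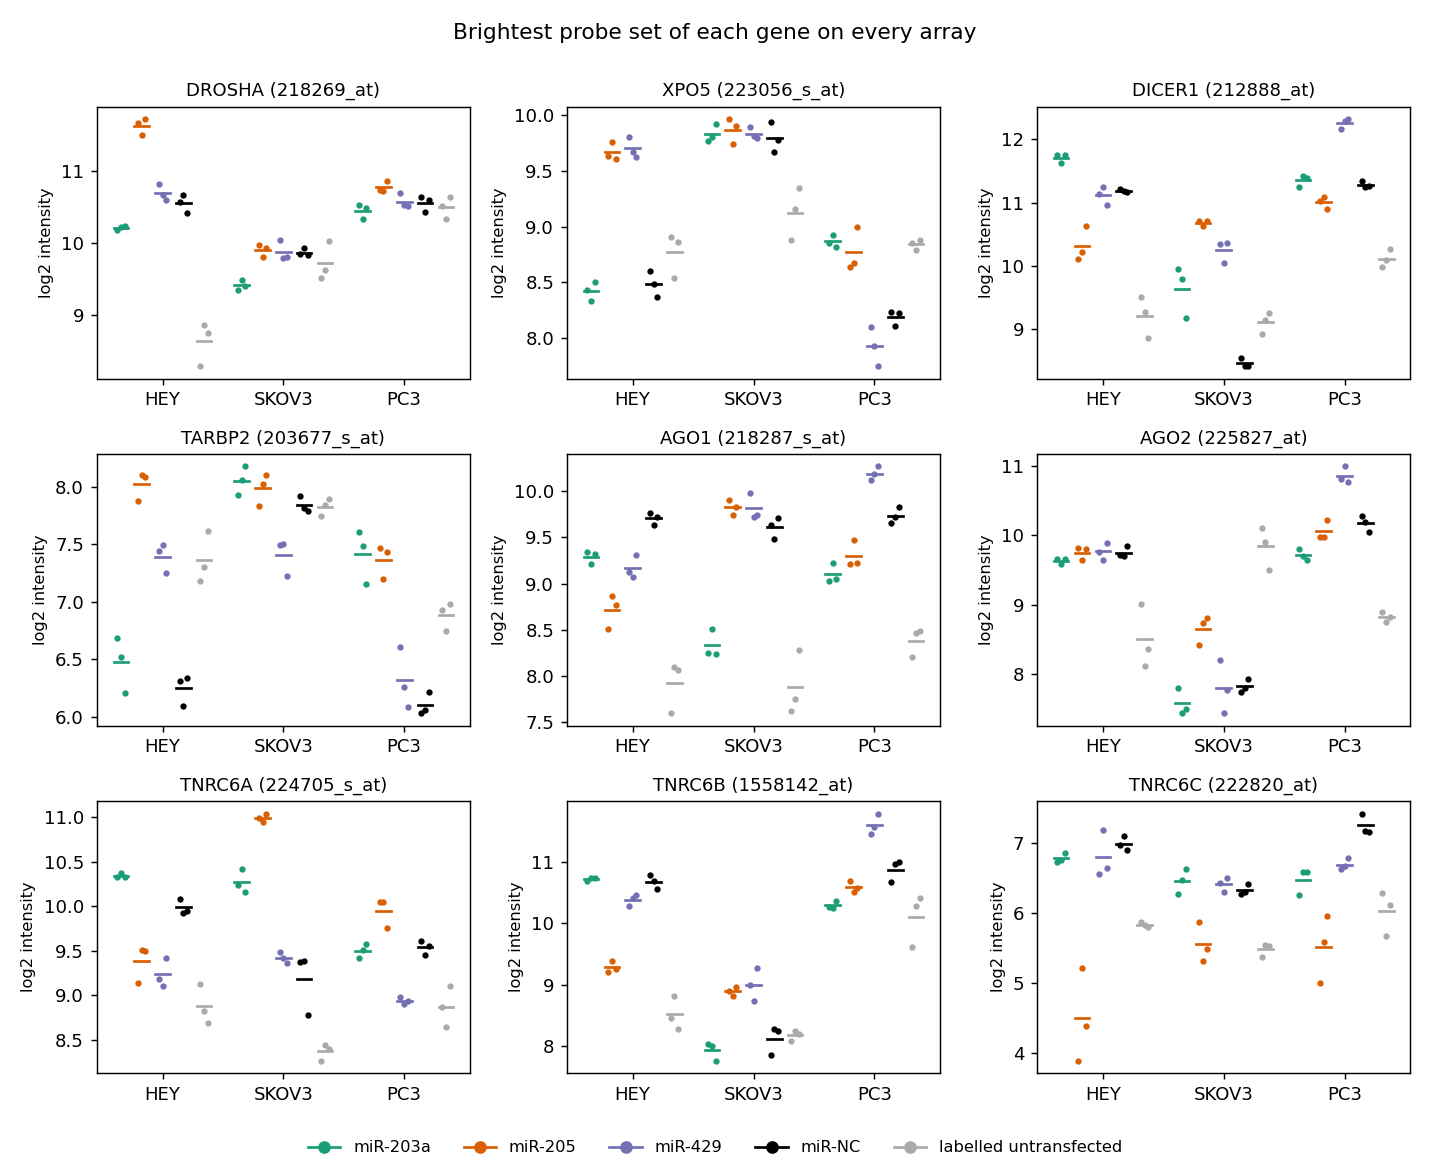
Log2 intensity of the brightest probe set of each of the 9 genes on all 45 arrays, by line and treatment; points are arrays, bars are group means of 3 arrays, and grey marks the arrays labelled untransfected, whose line labels go against marker genes. DICER1, AGO2 and TNRC6B are lowest in SKOV3 among the miR-NC groups (black), and TNRC6C with miR-205 (orange) lies below miR-NC in each line.

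The response of these genes to a miRNA often differed between lines by a moderated F-test of the difference itself. By brightest probe set, 6 of 9 genes differed for miR-203a, 9 of 9 for miR-205 and 7 of 9 for miR-429. Among member probe sets these were 8, 24 and 21 of 34, beside 41.7%, 67.5% and 66.2% of all tested probe sets. For miR-203a the members' share was thus below that of all probe sets, and for the other miRNAs it was near it. The 21 include 216281_at of DICER1, which passed the filter through HEY cells with miR-429 alone. DICER1 with miR-205 changed by -0.87 in HEY, 2.22 in SKOV3 and -0.28 in PC3 cells (adjusted p = 4.18e-14). TNRC6A with miR-205 changed by -0.61, 1.81 and 0.41 in the same lines (adjusted p = 4.14e-12). DROSHA and TNRC6B showed no called difference between lines for miR-203a (adjusted p = 0.260 and 0.0571), and neither did AGO2 (adjusted p = 0.493).

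The miR-NC groups also differed between lines in the level of the machinery. SKOV3 cells read lower than HEY cells on the brightest probe sets of DICER1, AGO2 and TNRC6B: 8.46 ± 0.07 against 11.19 ± 0.02 for DICER1 (212888_at), 7.83 ± 0.10 against 9.75 ± 0.08 for AGO2, and 8.12 ± 0.24 against 10.68 ± 0.12 for TNRC6B (1558142_at). The differences were -2.73 ± 0.15, -1.92 ± 0.17 and -2.56 ± 0.16, with adjusted p = 2.73e-18, 7.55e-13 and 2.59e-17. Between these groups 24 member probe sets differed, 70.6% beside 78.5% of all tested, with 9 higher in SKOV3 (37.3% of all) and 15 lower (41.2%). XPO5 and TARBP2 were higher in SKOV3 than in HEY cells, by 1.31 ± 0.12 and 1.59 ± 0.14, and the 5′ GAPDH signal was 5.37 higher. DROSHA, TNRC6A and TNRC6C were lower in SKOV3 than in HEY cells on their brightest probe sets, by 0.69, 0.81 and 0.66. Of the 6 TNRC6A probe sets 4 were lower in SKOV3 and 2 higher, by up to 0.95. Of the 5 TNRC6C probe sets 2 were lower and 1 higher, by 0.66. The higher ones of both genes are dim, with HEY miR-NC means below the background level. The 213229_at probe set of DICER1 differed by 0.06 and did not follow the other bright ones. Of the 7 TNRC6B probe sets 3 were lower in SKOV3 than in HEY cells and 2 were higher, 228998_at by 2.29 and 229036_at by 1.06.

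PC3 and SKOV3 control cells differed in 25 of 34, beside 81.3% of all, with 14 higher in PC3 (41% of all) and 11 lower (40.3%). DICER1 was 2.82 ± 0.15 higher in PC3 on 212888_at (adjusted p = 7.37e-19) and 1.07 ± 0.33 lower on 213229_at, a call lost without PC3 miR-NC replicate 1 (-0.47, adjusted p = 0.136). AGO2 was 2.34 ± 0.17 higher (adjusted p = 2.64e-15) and TNRC6B 2.76 ± 0.16 higher (adjusted p = 2.11e-18). PC3 and HEY control cells differed in 12, 35.3% beside 53.9% of all, with 3 higher in PC3 (22.4% of all) and 9 lower (31.5%). Their DICER1 levels on 212888_at, 11.28 ± 0.05 in PC3 and 11.19 ± 0.02 in HEY, did not differ by the test (adjusted p = 0.646), so SKOV3 was lowest and the other lines stood together on that probe set. The same held for 1558142_at of TNRC6B, where PC3 and HEY differed by 0.20 (adjusted p = 0.292). On 228998_at and 229036_at of TNRC6B SKOV3 was the highest instead, and PC3 minus SKOV3 was -2.85 and -0.52. AGO1 on 218287_s_at was level over the 3 lines, with miR-NC means of 9.73 in PC3, 9.61 in SKOV3 and 9.71 in HEY, whereas 228120_at averaged 9.76, 7.39 and 8.87.

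On the arrays labelled untransfected DICER1 (212888_at) averaged 9.21 ± 0.33 for HEY, 9.10 ± 0.17 for SKOV3 and 10.12 ± 0.15 for PC3. AGO2 averaged 8.50 ± 0.46, 9.84 ± 0.30 and 8.83 ± 0.07 under the same labels. AGO1 (218287_s_at) ranged from 7.60 to 8.49 on these 9 arrays and from 8.24 to 10.27 on the 36 transfected ones.

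A wider list of 41 pathway genes (precursor processing, Argonautes AGO3 and AGO4, deadenylation, decapping and decay) was set beside the members, by brightest probe set, and 40 could be tested. In SKOV3 cells 3 rose and 1 fell with miR-203a, where 5.88% of all tested probe sets rose and 4.11% fell. With miR-205 11 rose and 1 fell (14% and 8.19% of all), and with miR-429 9 rose and 4 fell (13% and 5.84% of all). The list's median difference was -0.01, 0.10 and 0.11, against 0.01, 0.01 and -0.01 over all tested probe sets. With miR-203a CNOT6, a catalytic subunit of the CCR4-NOT deadenylase, fell by 1.14 ± 0.17 (adjusted p = 3.90e-06), and AGO4, an Argonaute, rose by 0.69 ± 0.14 (adjusted p = 0.000635). LIMD1, which links Argonaute to the cap-binding complex, rose by 1.45 ± 0.21 with miR-205 (adjusted p = 1.47e-06) and by 1.09 ± 0.21 with miR-429 (adjusted p = 0.000169). PAN2, the catalytic subunit of the other deadenylase, fell with miR-205 by 0.90 ± 0.19 (adjusted p = 0.000451), and AGO4 rose with miR-429 by 0.89 ± 0.14 (adjusted p = 8.21e-06).

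In HEY cells 1 list gene rose and 1 fell with miR-203a, where 6.47% of all tested probe sets rose and 6.56% fell. With miR-205 10 rose and 23 fell, where 32.8% of all tested probe sets rose and 32% fell, and with miR-429 9 rose and 18 fell, where 24.3% rose and 33.4% fell. The list's median difference in HEY cells was 0.02, -0.36 and -0.18 for miR-203a, miR-205 and miR-429, against 0.03, 0.05 and -0.10 over all tested probe sets. TUT4, which adds uridines to precursor and target RNA ends, fell with miR-205 to a mean of 4.09, below the background level, against 7.80 with miR-NC, and MOV10, a helicase that binds Argonaute, rose by 3.22 ± 0.31. In PC3 cells 14 rose and 17 fell with miR-203a, where 30.7% of all tested probe sets rose and 24.2% fell. With miR-205 12 rose and 9 fell (26.9% and 19.8% of all), and with miR-429 9 rose and 9 fell (13% and 31.3% of all). The list's medians there were -0.08, -0.01 and 0.07, against 0.07, 0.05 and -0.20 over all tested probe sets. MOV10 rose there by 1.42 ± 0.31 with miR-203a and by 2.17 ± 0.31 with miR-205. PNPT1, a mitochondrial ribonuclease known to be induced by interferon, rose by 2.11 ± 0.12 with miR-205. The 5′ GAPDH arrays did not overlap miR-NC in HEY cells with miR-205 and miR-429 or in PC3 cells with miR-203a and miR-205, and they overlapped miR-NC in PC3 cells with miR-429. Their part in these counts was not tested.

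Across the 15 group means, the gene whose brightest probe set followed each member most closely among 15598 others was APPL1 for DICER1 (Pearson r = 0.954), TSC22D1 for AGO2 (0.972) and PCNX4 for TNRC6B (0.987). It was METTL22 for DROSHA (0.938), CRELD2 for XPO5 (0.971) and PITRM1 for TARBP2 (0.967). For AGO1 it was ARHGAP32 (0.908), for TNRC6A PDLIM5 (0.873) and for TNRC6C TGDS (0.898). These values describe 15 means that share lines, arrays and labelling quality, and the likeness of the closest of many genes is high by selection.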

How the data were processed

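The authors deposited log2 intensities, 1 for each probe set and array, which the submitters' processing notes credit to RMA (background correction, normalization between arrays and probe summary). Its version is not given in the sources used here. RNA was amplified from the 3′ end and labelled with biotin, per the labels' protocols. Of 54675 probe sets, 41097 carry 1 symbol in the platform annotation, and control probe sets and those whose highest group mean did not exceed 4.89 were left out, which kept 31147. One linear model held the 15 groups and all 45 arrays (limma 3.58.1, lmFit and eBayes, in R 4.3.3; residual df 30, prior df 5.84). Two-sided tests were used with Benjamini-Hochberg adjustment over all tested probe sets and a threshold of 0.05. Values after ± in log2 changes are standard errors of this fit, and those of group means are SDs over 3 arrays. The brightest tested probe set leads each gene, and every probe set is otherwise on its own. Of the wider list up to 2 called genes with the largest change were taken in a comparison, and some of those were left out of the text. The likeness to other genes used 1 probe set a gene. The members and lists were chosen with earlier results of these data known. Nothing in the labels ties the 3 arrays of a group to separate cultures, so p-values measure the spread between arrays, which may be technical, and 3 arrays a group set the precision. The replicate numbers do not pair arrays: over 27 pairs of same-numbered arrays deviations correlated at -0.13 to 0.16. The columns did not share 1 distribution, with an order statistic spread by up to 0.99 over arrays. Alternatives were a fit per line, a fit without the arrays labelled untransfected, a replicate block, quantile normalization, array medians subtracted, other filters, a trend with robust prior, gene means, dropping probe sets whose suffix marks possible cross-hybridisation, and each array left out in turn. Sequences are from RefSeq tables for GRCh38.p14. The fit was tested on simulated data. Python 3.11.15, numpy 2.4.6, pandas 2.3.3 and matplotlib 3.10.9 were used.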

Additional observations from a re-analysis of the deposited data

Results flagged for a closer look

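The change with a miRNA differed between the 3 lines, by a moderated F-test of the difference itself on each gene's brightest probe set, for 22 of the 27 pairs of gene and miRNA. Of all tested probe sets 41.7%, 67.5% and 66.2% differed between lines for miR-203a, miR-205 and miR-429, and of the 34 member probe sets 8, 24 and 21. The 21 include 216281_at of DICER1, which passed the filter through HEY cells with miR-429 alone. Adjusted p-values follow, all adjusted over the 31147 tested probe sets. For miR-203a they were 0.000904 for XPO5, 0.000358 for DICER1 and 1.76e-05 for TARBP2. They were 0.00154 for AGO1, 5e-05 for TNRC6A and 0.0439 for TNRC6C. For miR-205 the values were 1e-05 for DROSHA, 3.46e-06 for XPO5, 4.18e-14 for DICER1 and 3.37e-08 for TARBP2. AGO1 had 1.18e-05 and AGO2 0.00126, and among the GW182 genes TNRC6A had 4.14e-12, TNRC6B 9.22e-10 and TNRC6C 3.75e-05. For miR-429 the values were 5.9e-09 for XPO5, 2.51e-08 for DICER1 and 1.25e-07 for TARBP2. They were 0.000145 for AGO1, 0.014 for AGO2, 6.55e-05 for TNRC6A and 2.97e-05 for TNRC6B. The 5′ GAPDH signal was level over the SKOV3 transfections and not over those of HEY and PC3, and its part in these differences was not tested.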

How the results depend on the processing

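Counts of called member probe sets stayed within 1.5 times the values reported in all settings but these. For miR-203a in HEY cells (5) the count was 1 in a fit of HEY alone, 8 without the arrays labelled untransfected and 0 to 2 when 1 array was left out. It was 10 under quantile normalization for miR-429 in PC3 cells (16), 13 under the stricter filter for miR-429 in HEY cells (20), and for miR-205 against miR-203a in PC3 cells (8) it was 5 without a filter and 3 to 5 with 1 array left out. Without probe sets of suffix _s_at, _x_at or _a_at, which leaves fewer to count, the counts for miR-203a, miR-205 and miR-429 were 2, 9 and 11 in HEY, 3, 8 and 3 in SKOV3 and 8, 6 and 11 in PC3, and 14, 7 and 15 between the miR-NC groups of SKOV3 and HEY, PC3 and HEY, and PC3 and SKOV3. With a gene's probe sets averaged, 1 gene was called for miR-203a in HEY cells and 3 in PC3 cells, against 2 and 6 by brightest probe set. That averaging also turned the sign of 7 differences that were called by brightest probe set or by mean. Turned signs of differences called by neither were not counted. The 7 were TNRC6A with miR-205 in PC3 (-0.036), DICER1 (0.64) and TNRC6B (0.59) with miR-429 in HEY, TARBP2 with miR-429 in SKOV3 (0.025), and among miR-NC groups TNRC6C in SKOV3 against HEY (0.10) and, in PC3 against SKOV3, TNRC6A (-0.012) and TNRC6C (-0.082). The cause was not tested. The replicate block gave 5, 6 and 14 called probe sets for miR-203a in HEY, SKOV3 and PC3, and with it DICER1 213229_at lost its call for miR-429 in SKOV3 (adjusted p = 0.0520). The 10 settings each cover all or some of 442 single differences. With the sign kept, a call was lost 68 times and gained 83 times. In the 7 cases listed above the sign turned and a call was lost or gained as well. In 3510 the call stayed, and an uncalled difference among these may have changed sign. A difference counts once in each setting.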
